A study of Mus musculus with 8 samples.

Results

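The 10 genes described here belong to the liver X receptor (LXR) system and to the export of cholesterol from cells. They are *Nr1h3* and *Nr1h2*, which encode the receptors LXRα and LXRβ, the transporter genes *Abca1* and *Abcg1*, the apolipoprotein genes *Apoe* and *Apoc1*, the phospholipid genes *Pltp* and *Lpcat3*, the ubiquitin ligase gene *Mylip* and the gene of an HDL-binding protein, *Hdlbp*. They were taken by symbol from 46078 gene identifiers, and all 10 were among the 14736 genes with enough reads to be tested. Reads came from bulk RNA sequencing of chronic stroke infarcts of 8 wild type male C57BL/6J mice aged 18 months. Stroke in all 8 was of the DH type, a permanent closure of the distal middle cerebral artery followed by breathing of low oxygen. From 1 week after stroke, 4 mice received sterile PBS (vehicle) and 4 mice received 4 g/kg 2-hydroxypropyl-β-cyclodextrin (HPβCD), a ring of sugars that can hold cholesterol, under the skin 3 times per week for 6 weeks. Infarcts were collected at 7 weeks after stroke, 1 from each mouse. Dissection was by eye, so a piece could hold more or less of the neighbouring brain.

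LXRs are nuclear receptors that are switched on by oxidized forms of cholesterol. They sit on DNA together with a retinoid X receptor and turn on genes that move cholesterol out of the cell, with ABCA1 loading it onto lipid-poor apolipoproteins and ABCG1 loading it onto HDL. In brain, apolipoprotein E made by astrocytes, microglia and macrophages is the main carrier of cholesterol between cells, and macrophages that have taken up myelin rely on this route to shed its cholesterol. The opposite arm is governed by SREBP2, which turns on cholesterol synthesis and uptake when cells are short of sterol.

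An LXR binds with its partner to a pair of AGGTCA units in the same orientation with 4 bases between them, an element called DR4. RefSeq promoter windows (GRCm38.p6), reaching from 250 bases before to 50 bases after a start site, were given for 8 of the 10 genes, in 13 windows. With at most 3 of the 12 letters of the element changed, on either strand, the search found it in *Abca1* alone. The same search found it in 21.9% of all 32851 windows, and a match describes the letters only. The *Abca1* match lay at -67 to -52 from the start site and had 3 letters changed. It is shown because *Abca1* is the transporter through which the receptors are best known to act. The stretch covers chr4:53159896-53160022 on the minus strand, 127 bases ending just before the start site, and capitals mark the match, which reads in the opposite orientation to the gene.

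*Abca1* promoter: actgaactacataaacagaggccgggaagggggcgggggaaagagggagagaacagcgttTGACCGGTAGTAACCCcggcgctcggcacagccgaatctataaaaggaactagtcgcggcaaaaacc

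The libraries held between 16.6 M and 32.9 M gene counts. Marker levels of the cell types in these infarcts differed widely between libraries. The summed level of 6 neuron markers ranged from 23.9 to 8237 CPM (counts scaled to library size with TMM factors) in vehicle infarcts and from 10.9 to 103.6 CPM in HPβCD infarcts, and *Snap25* was highest in vehicle animal 3 (3023 CPM), next in vehicle animal 1 (335 CPM) and at most 29.9 CPM elsewhere. Where leaving out these 2 animals together moved a named value by more than 1.5 times, turned its direction or ended a call, the value without them is given beside it. The summed level of 8 foamy macrophage markers ranged from 6351 to 11510 CPM in vehicle and from 14480 to 24380 CPM in HPβCD infarcts, and all 8 markers had higher estimates after HPβCD, 1 of them called. The called marker, *Gpnmb*, alone ranged from 2947 to 5475 CPM and from 8476 to 14610 CPM. Without vehicle animals 1 and 3 it lost its call (log2 fold change 1.11, edgeR adjusted p = 0.0647). *Spp1*, named after its values were seen, went from 0.086 to -0.34 without them. Fibroblast markers (6 of 6 higher, 2 called) ranged from 2348 to 6025 CPM and from 8657 to 9270 CPM. Astrocyte markers (7 of 7 lower, 0 called) ranged from 2170 to 9024 CPM and from 626 to 2487 CPM. By edgeR, 0 of 6 neuron and 0 of 7 astrocyte markers passed, while 6 and 5 had an unadjusted p under 0.05 and DESeq2 called 5 and 4 lower. B and plasma cell markers (7 of 7 lower, 3 called) ranged from 1372 to 2910 CPM and from 253 to 543 CPM, and oligodendrocyte markers (6 of 6 lower, 0 called, 0 at an unadjusted p under 0.05, 1 called by DESeq2) from 1518 to 4876 CPM and from 158 to 1930 CPM. Of the 3 called, *Jchain* and *Cd79b* lost their calls without vehicle animals 1 and 3 (edgeR adjusted p of 0.106 and 0.0738). Summed levels of microglia, border macrophage, endothelial and T cell markers overlapped between the groups, with 1 microglia marker of 7 called lower (5 lower at an unadjusted p under 0.05, 3 called lower by DESeq2) and 0 of 6 called in each of the other lists (2, 3 and 1 at an unadjusted p under 0.05, and 0, 2 and 1 called by DESeq2). The called microglia marker, *Siglech*, lost its call without vehicle animals 1 and 3 (edgeR adjusted p = 0.0889). Leaving out vehicle animals 1 and 3 took the median log2 fold change of the neuron markers from -5.88 to -0.058. Medians of astrocyte (-1.36 to -1.05), oligodendrocyte (-1.90 to -1.69) and B and plasma cell markers (-1.88 to -1.87) stayed low. That of fibroblast markers went from 0.94 to 0.52. Values without these 2 animals are therefore not free of the other marker shifts. The part of all these shifts in the results below was not tested. In bulk tissue, fewer cells of a type and less RNA per cell cannot be told apart.

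In HPβCD infarcts, all 10 genes had a higher estimate than in vehicle infarcts, and 1 of them, *Pltp*, passed the test. An unadjusted p under 0.05 was found in 7, all higher, against 11.8% of all genes higher and 16% lower. Log2 fold changes ran from 0.34 to 1.65 with a median of 0.58, while the median over all genes tested was -0.045 and 45.9% of them had a higher estimate. With edgeR (quasi-likelihood F test, Benjamini-Hochberg adjustment over all genes, threshold 0.05), 1.17% of genes were called higher and 0.774% lower. In 6 of the 10 genes (*Nr1h3*, *Abca1*, *Apoe*, *Lpcat3*, *Pltp* and *Hdlbp*) all 4 HPβCD animals lay above all 4 vehicle animals, which was true of 8.77% of all genes. The opposite order was found in 0 of the 10 and in 8.03% of all genes. *Abca1*, *Apoe* and *Hdlbp* are among the genes that the study picked out on these same libraries. All 10 genes were chosen with earlier results of these data known, so none of them is independent evidence of a direction. The counts beside the shares of all genes describe this list only.

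The number of calls depended on the test. DESeq2, the tool the study used, called 5 of the 10 genes higher (*Pltp*, *Lpcat3*, *Hdlbp*, *Apoe* and *Abca1*) and 0 lower, against 5.92% and 11.1% of the 17041 genes it tested. limma-voom with sample quality weights also called 5, but *Nr1h2* and *Nr1h3* took the places of *Abca1* and *Apoe*, and its background of genes called higher was 10.9%. Without vehicle animals 1 and 3, edgeR called 0 of the 10, against 0.485% of all genes called higher. An unadjusted p under 0.05 was then found in 6, against 12% of all genes. The median log2 fold change was then 0.51, and 9 of 10 estimates stayed above 0, the exception being *Mylip*.

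**Figure D1:**
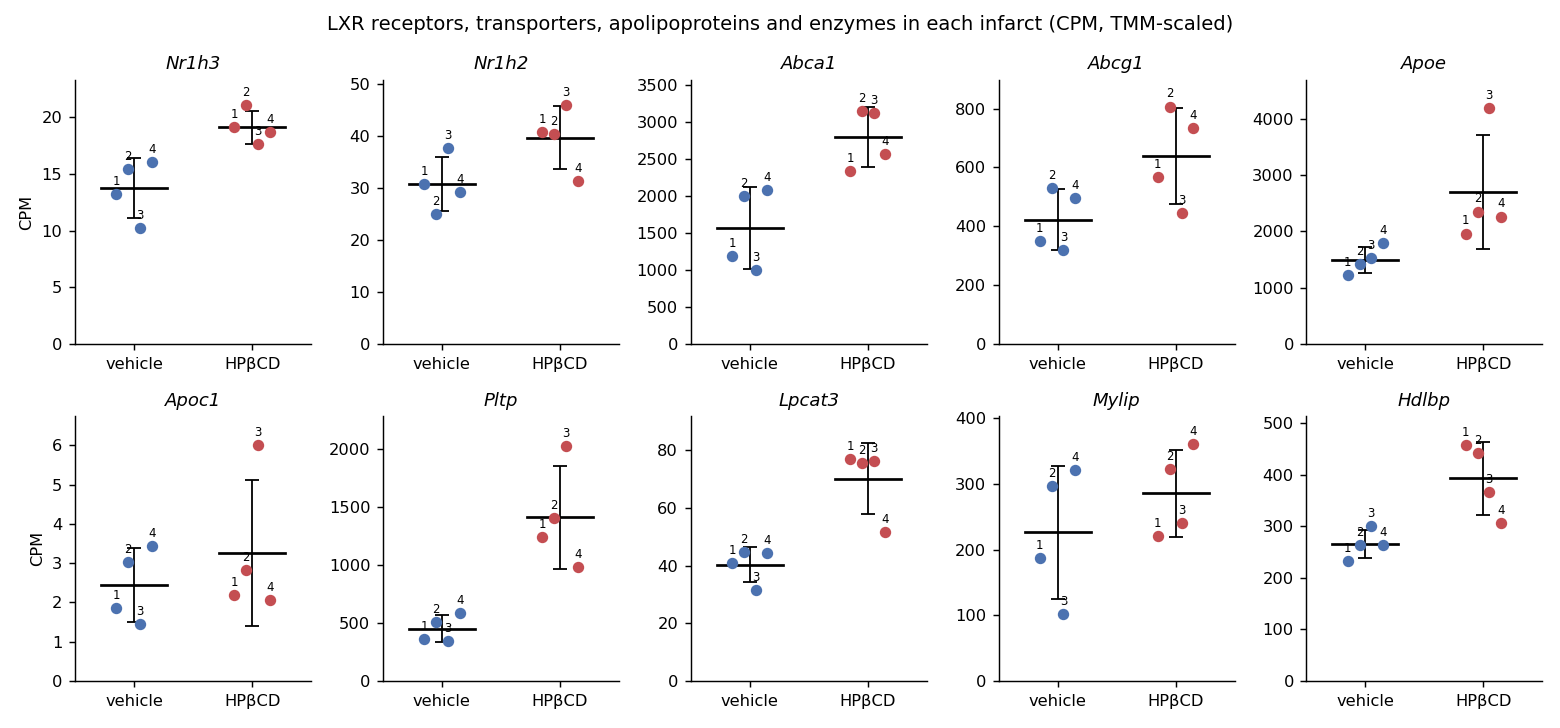
CPM of the 10 genes in each infarct, from 0, with vehicle animals in blue and HPβCD animals in red, numbered as in the labels. Horizontal lines are group means and bars are SDs (n = 4). In the panels of *Pltp*, *Abca1*, *Apoe*, *Lpcat3*, *Hdlbp* and *Nr1h3* the groups do not overlap.

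The receptor LXRα, encoded by *Nr1h3* (ENSMUSG00000002108, GRCm38 chromosome 2, 91184061 to 91202834, minus strand), is the form found mainly in macrophages, liver and fat and is itself an LXR target in some cells. It was at 13.2, 15.4, 10.2 and 16.0 CPM in vehicle animals 1 to 4 and at 19.1, 21.02, 17.6 and 18.7 CPM in HPβCD animals 1 to 4. Vehicle animal 3 was the lowest, and the groups did not overlap. Its log2 fold change was 0.47 (standard error 0.17, adjusted p = 0.119 by edgeR), and 0.29 without vehicle animals 1 and 3. The raw counts behind it were between 169 and 538 per library. Of the exon length, 1.35% is shared with another gene on the same strand.

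LXRβ, encoded by *Nr1h2* (ENSMUSG00000060601, chromosome 7, 44549616 to 44553951, minus strand), is made in most cell types. It was at 30.8, 25.1, 37.7 and 29.3 CPM in vehicle and at 40.8, 40.4, 46.0 and 31.4 CPM in HPβCD infarcts. HPβCD animal 4 lay within the vehicle range, since vehicle animal 3 was at 37.7 CPM. The estimate, on the log2 scale, was 0.37 higher (standard error 0.17, adjusted p = 0.205 by edgeR), and 0.56 higher without vehicle animals 1 and 3.

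Per length, *Nr1h2* was above *Nr1h3* in all 8 libraries. The log2 ratio of *Nr1h3* to *Nr1h2* was -0.80, -0.28, -1.46 and -0.45 in vehicle animals 1 to 4 and -0.68, -0.53, -0.97 and -0.34 in HPβCD animals 1 to 4. The difference in mean ratio, 0.12, was smaller than the spread within either group (two-sided exact permutation p = 0.714). It changed sign without vehicle animal 3 (-0.11) and without vehicle animals 1 and 3 (-0.26).

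*Abca1* (ENSMUSG00000015243, chromosome 4, 53030787 to 53159895, minus strand) encodes the transporter that hands cholesterol and phospholipid to lipid-poor apolipoproteins. Its values were 1194, 2003, 1002 and 2089 CPM in vehicle animals 1 to 4 and 2334, 3145, 3124 and 2576 CPM in HPβCD animals 1 to 4. The vehicle animals fell into a low pair, animals 1 and 3, and a high pair, animals 2 and 4, and the high pair lay close below the lowest HPβCD animal. The means were 1572 ± 554 and 2795 ± 405 CPM (SD, n = 4 each), which corresponds to a log2 fold change of 0.83 (standard error 0.28, adjusted p = 0.102 by edgeR and 0.0301 by DESeq2). The low pair are the animals with neuronal transcripts, and without them the log2 fold change was 0.46 (edgeR adjusted p = 0.192).

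*Abcg1* (ENSMUSG00000024030, chromosome 17, 31057675 to 31117988, plus strand) encodes the transporter that moves sterol to HDL particles. It was at 349, 531, 318 and 495 CPM in vehicle infarcts and at 567, 807, 446 and 732 CPM in HPβCD infarcts. HPβCD animal 3 was the lowest of its group for *Abcg1* and lay within the vehicle range, although it had the second highest *Abca1*. On the log2 scale the difference was 0.59 (standard error 0.25, adjusted p = 0.163 by edgeR and 0.126 by DESeq2), and 0.33 without vehicle animals 1 and 3.

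Per length, *Abca1* exceeded *Abcg1* in every library. The log2 ratio of *Abca1* to *Abcg1* was 1.35 ± 0.18 in vehicle and 1.65 ± 0.44 in HPβCD infarcts (SD, n = 4 each), with HPβCD animal 3 highest at 2.30 and the other 7 libraries between 1.15 and 1.57. The groups overlapped (two-sided exact permutation p = 0.229), and the difference of 0.30 was 0.16 without vehicle animals 1 and 3 and 0.084 without HPβCD animal 3.

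*Apoe* (ENSMUSG00000002985, chromosome 7, 19696109 to 19699188, minus strand) encodes the apolipoprotein that accepts exported cholesterol. It was at 1230, 1418, 1523 and 1791 CPM in vehicle animals 1 to 4 and at 1962, 2352, 4192 and 2263 CPM in HPβCD animals 1 to 4. HPβCD animal 3 was far above the others, and the groups did not overlap. *Apoe* had a log2 fold change of 0.85 (standard error 0.27, adjusted p = 0.094 by edgeR and 0.0189 by DESeq2), falling to 0.56 without HPβCD animal 3. Unlike *Abca1*, *Apoe* was not lowest in the vehicle animals with neuronal transcripts as a pair, and its log2 fold change without those animals was 0.76 (edgeR adjusted p = 0.207).

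*Apoc1* (ENSMUSG00000040564, chromosome 7, 19689481 to 19692660, minus strand) lies next to *Apoe* in the same apolipoprotein cluster and encodes a small protein of lipoprotein particles. Its counts were low, between 24 and 112 reads per library. It was at 1.87, 3.04, 1.45 and 3.44 CPM in vehicle infarcts and at 2.18, 2.82, 6.01 and 2.05 CPM in HPβCD infarcts. HPβCD animals 1, 2 and 4 lay within the vehicle range. The log2 fold change of 0.41 (standard error 0.43, adjusted p = 0.579 by edgeR) became -0.062 without HPβCD animal 3 and 0.033 without vehicle animals 1 and 3. The log2 ratio of *Apoc1* to *Apoe* per length was -7.78 ± 0.51 in vehicle and -8.23 ± 0.27 in HPβCD infarcts (two-sided exact permutation p = 0.171). The difference of -0.45 was -0.82 without vehicle animals 1 and 3, and -0.68 without animal 3 alone.

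*Pltp* (ENSMUSG00000017754, chromosome 2, 164839518 to 164857711, minus strand) encodes phospholipid transfer protein, which remodels HDL and supplies it with phospholipid. It rose from 362, 511, 341 and 589 CPM in vehicle animals 1 to 4 to 1238, 1401, 2026 and 982 CPM in HPβCD animals 1 to 4. The lowest HPβCD animal was well above the highest vehicle animal. The means were 451 ± 120 and 1412 ± 444 CPM (SD, n = 4 each), a 3.13-fold difference and the largest log2 fold change of the 10 genes, 1.65 (standard error 0.28, adjusted p = 0.0472 by edgeR and 8e-06 by DESeq2). When animals were left out singly, the log2 fold change stayed between 1.42 and 1.82, but the call was lost when vehicle animal 1 or 4 or HPβCD animal 1, 2 or 3 was omitted (edgeR adjusted p from 0.0635 to 0.175). It was also lost with vehicle animals 1 and 3 both left out, at 1.37 (edgeR adjusted p = 0.0527). Exons of *Ctsa*, a lysosomal protease gene on the opposite strand, cover 19.3% of the exon length of *Pltp*. The strand option of the counting was not stated, and reads of the shared part cannot be assigned to either gene if strand was ignored.

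*Lpcat3* (ENSMUSG00000004270, chromosome 6, 124663027 to 124704418, plus strand) encodes an acyltransferase that puts polyunsaturated chains into membrane phospholipid. It was at 41.0, 44.6, 31.4 and 44.4 CPM in vehicle and at 76.9, 75.5, 76.4 and 51.6 CPM in HPβCD infarcts. HPβCD animals 1 to 3 were nearly equal, and animal 4 was lower but still above each vehicle animal. Its log2 fold change of 0.80 had a small error (SE 0.18) and lay just outside the threshold (edgeR adjusted p = 0.0581; DESeq2 adjusted p = 0.0031). It passed edgeR's test without vehicle animal 3 (adjusted p = 0.049) and without HPβCD animal 4 (adjusted p = 0.0364). Exons of *Emg1* on the opposite strand cover 10.2% of its exon length. Of the related acyltransferase genes *Lpcat1*, *Lpcat2* and *Lpcat4*, 0 of 3 passed by either edgeR or DESeq2, with 0 at an unadjusted p under 0.05 and log2 fold changes of 0.30, 0.22 and -1.48. Without vehicle animals 1 and 3 these were 0.13, 0.063 and 0.46, so that of *Lpcat4* turned.

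*Mylip* (ENSMUSG00000038175, chromosome 13, 45389742 to 45412022, plus strand) encodes a ubiquitin ligase, also called IDOL, that marks lipoprotein receptors for breakdown. It was at 187, 297, 102 and 321 CPM in vehicle and at 221, 323, 240 and 360 CPM in HPβCD infarcts. The order again paired vehicle animals 1 and 3 as the lowest, and the groups overlapped. The log2 fold change of 0.34 (standard error 0.34, adjusted p = 0.572 by edgeR) became -0.096 without those 2 animals. Of the receptors that this ligase marks, *Vldlr* had a log2 fold change of 0.55 and *Lrp8* of -1.73, and neither passed edgeR's test (adjusted p of 0.0949 and 0.0824). DESeq2 called *Vldlr*, another gene the study picked out on these libraries, higher and *Lrp8* lower. Without vehicle animals 1 and 3 the value of *Lrp8* was -0.68.

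*Hdlbp* (ENSMUSG00000034088, chromosome 1, 93405940 to 93478815, minus strand) encodes vigilin, a protein that binds HDL and also binds RNA. It was at 233, 264, 300 and 264 CPM in vehicle and at 458, 443, 367 and 306 CPM in HPβCD infarcts. The groups did not overlap, with HPβCD animal 4 just above vehicle animal 3. The change of *Hdlbp* on the log2 scale was 0.57 (standard error 0.17, adjusted p = 0.0853 by edgeR and 0.0168 by DESeq2), and it was 0.59 without vehicle animals 1 and 3.

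**Figure D2:**
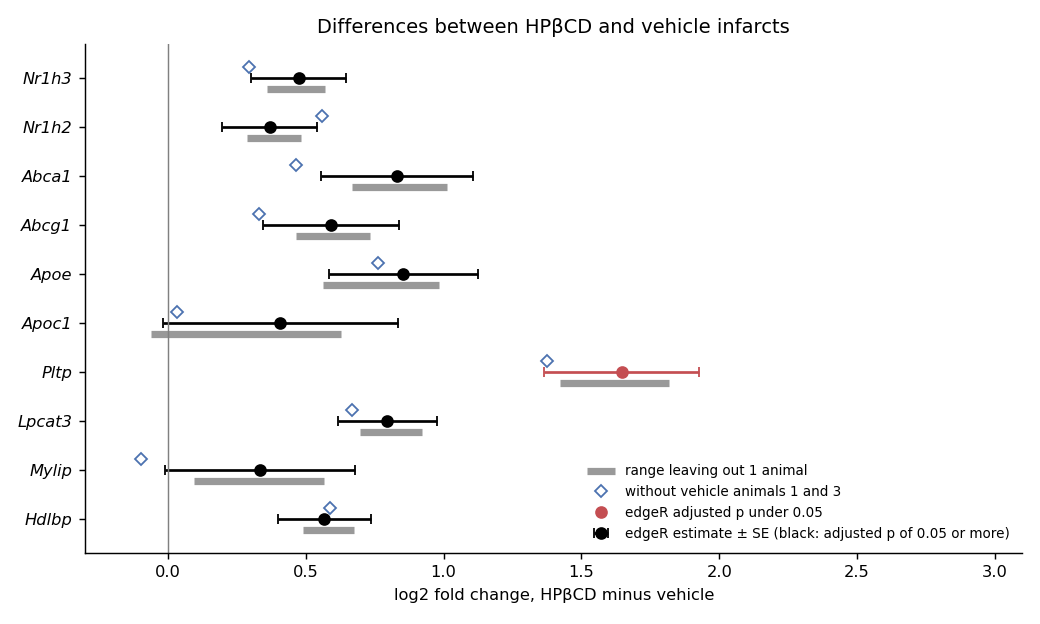
Log2 fold change of each gene, HPβCD minus vehicle. Dots and bars are edgeR estimates ± SE (red: adjusted p under 0.05), gray bars span the estimates with 1 animal left out, and open diamonds are estimates without vehicle animals 1 and 3. *Pltp* lies farthest from 0 at 1.65, and the diamonds of *Abca1* (0.46) and *Mylip* (-0.096) lie well to the left of their dots.

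The animals of a group did not rank alike across genes. HPβCD animal 3 was the highest of all 8 for *Apoe*, *Apoc1*, *Pltp* and *Nr1h2*, but the lowest HPβCD animal for *Abcg1* and *Nr1h3*. HPβCD animal 2 was the highest of all for *Abca1*, *Abcg1* and *Nr1h3*. Among vehicle animals, animal 3 was the lowest for *Abca1*, *Abcg1*, *Apoc1*, *Nr1h3*, *Mylip*, *Lpcat3* and *Pltp*, and the highest for *Nr1h2* and *Hdlbp*.

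Levels of different genes were compared as TPM, counts divided by exon length and scaled to the same total in each library. In vehicle infarcts *Apoe* was highest at 1633 ± 302 TPM (SD, n = 4), followed by *Pltp* at 418 ± 140, *Abca1* at 364 ± 156, *Mylip* at 169 ± 85.8, *Abcg1* at 138 ± 47.2, *Hdlbp* at 54.8 ± 6.05, *Lpcat3* at 29.3 ± 7.01, *Nr1h2* at 21.2 ± 1.39, *Nr1h3* at 12.96 ± 3.54 and *Apoc1* at 7.90 ± 3.56. *Apoe* ranked between 21 and 49 among all genes with a length, and *Pltp* between 48 and 228. Neighbours in this order kept it in all 8 libraries, except *Mylip* and *Abcg1* (5 of 8), *Lpcat3* and *Nr1h2* (7 of 8), and *Nr1h3* and *Apoc1* (7 of 8). The receptors and *Apoc1* were the 3 least abundant transcripts of the group by mean level.

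**Figure D3:**
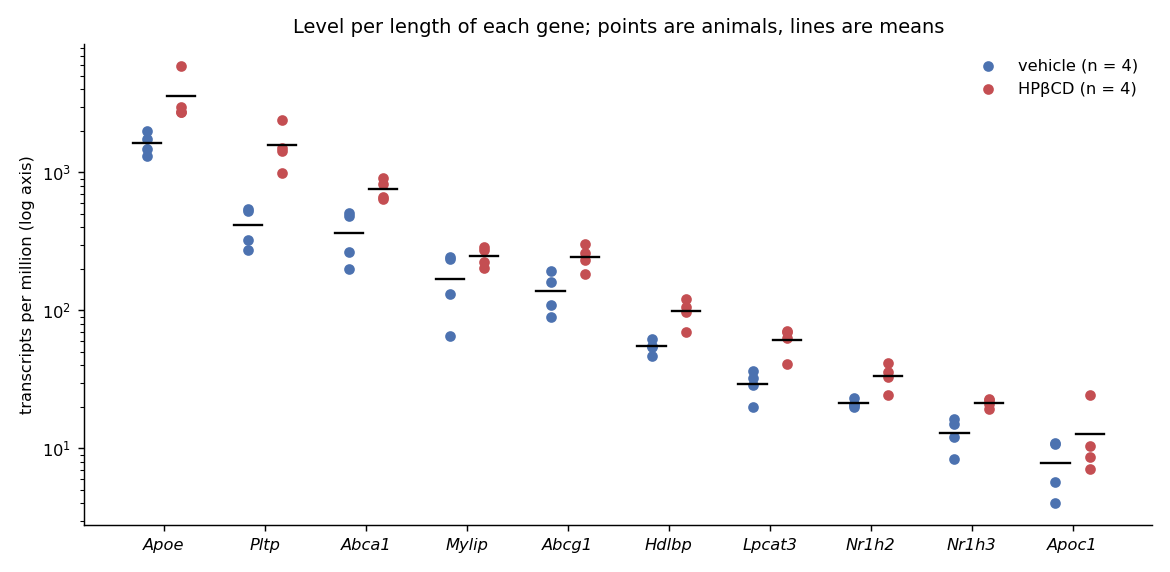
TPM of each gene on a log axis, ordered by the vehicle mean; points are animals (4 vehicle in blue, 4 HPβCD in red) and lines are means. *Apoe* (1315 to 5916 TPM) lies above the other genes in every library, and *Nr1h2*, *Nr1h3* and *Apoc1* are at the low end.

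Because LXR targets are abundant in macrophages, each gene was also set against 10 genes that macrophages and microglia share, such as *Csf1r*, *Cd68* and *Laptm5*. The mean log2 CPM of these genes was 6.93, 7.16, 6.69 and 7.17 in vehicle animals 1 to 4 and 7.31, 7.27, 7.89 and 7.06 in HPβCD animals 1 to 4. It was 0.39 higher in HPβCD infarcts, with overlapping groups (two-sided exact permutation p = 0.114). HPβCD animal 3 was the highest, as it was for *Apoe* and *Pltp*. By edgeR 0 of the 10 passed, with 5 at an unadjusted p under 0.05, and DESeq2 called 4 higher. The median log2 fold change of the 10 macrophage genes was 0.45, and 0.27 without vehicle animals 1 and 3.

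*Pltp* relative to these macrophage genes was at 1.58, 1.84, 1.72 and 2.03 on the log2 scale in vehicle animals and at 2.97, 3.19, 3.09 and 2.89 in HPβCD animals. The difference of 1.24 exceeded the spread within either group, and the groups did not overlap (two-sided exact permutation p = 0.0286, the smallest 4 against 4 can give, 1 of 10 genes so compared and not adjusted). It was 1.10 without vehicle animals 1 and 3, where 2 against 4 cannot reach the threshold. For the other 9 genes the groups overlapped. Differences of 0.50 for *Abca1*, 0.41 for *Apoe* and 0.40 for *Lpcat3* had exact permutation p-values of 0.114, 0.0857 and 0.0571, and that of *Abca1* was 0.23 without vehicle animals 1 and 3. Those of *Abcg1*, *Hdlbp*, *Nr1h3*, *Mylip*, *Nr1h2* and *Apoc1* were between -0.050 and 0.20 (exact permutation p from 0.514 to 0.914). Some of these depended on HPβCD animal 3. Without that animal the differences were 0.53 for *Abcg1* (exact permutation p = 0.0571), 0.36 for *Hdlbp*, 0.29 for *Mylip* and 0.31 for *Nr1h3* (exact permutation p = 0.0286, the smallest that 3 against 4 gave). For *Nr1h2* and *Apoc1* they were then 0.073 and -0.21 (exact permutation p of 0.857 and 0.4). Without HPβCD animal 4 those of *Abcg1* and *Nr1h3* were 0.010 and 0.0021. The value of *Lpcat3* without HPβCD animal 3 was 0.52 (exact permutation p = 0.0286). Without vehicle animals 1 and 3 the 6 differences ranged from -0.35 for *Mylip* to 0.34 for *Hdlbp*. *Csf1r* alone, with a log2 fold change of 0.13 (0.083 without vehicle animals 1 and 3), was a second reference. Against it the differences were 0.79 for *Abca1*, 0.70 for *Apoe* and 0.69 for *Lpcat3*. Each had an exact permutation p of 0.0286, as did *Pltp*, among 10 genes compared and not adjusted. For *Abcg1*, *Hdlbp*, *Nr1h3*, *Mylip*, *Nr1h2* and *Apoc1* the exact permutation p ran from 0.143 to 0.457. Differences from *Csf1r* were not recomputed without vehicle animals 1 and 3, where the log2 fold change of *Abca1* itself was 0.46.

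**Figure D4:**
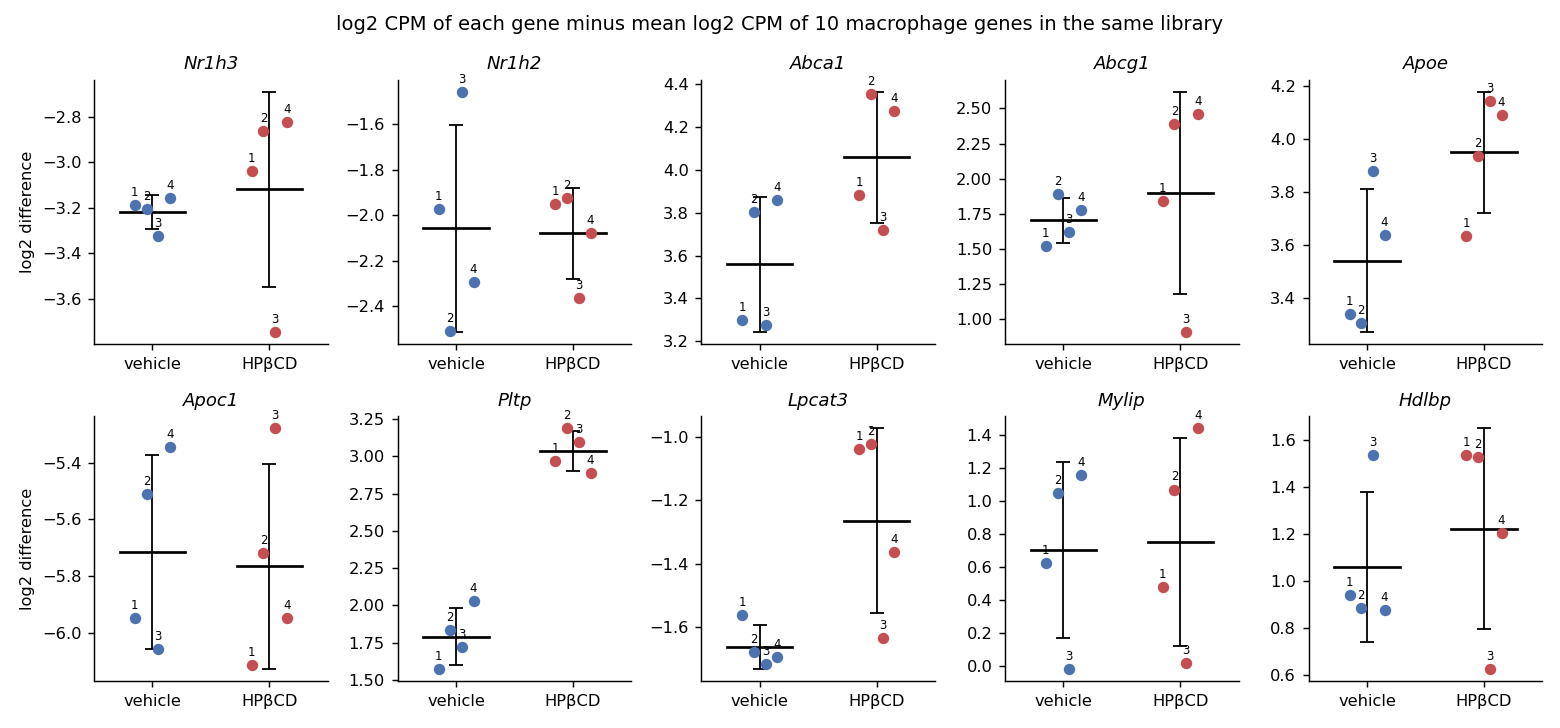
Log2 CPM of each gene minus the mean log2 CPM of 10 macrophage genes of the same library, by animal, with group means and SDs (n = 4); the axes do not start at 0. Only in the *Pltp* panel are the groups apart, at 1.58 to 2.03 and 2.89 to 3.19.

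The rest of the pathway was examined with lists of genes in their known roles. These lists, too, were chosen with earlier results of these data known. Their counts are to be read beside the shares of all genes given above. Of 16 other LXR targets, 13 were tested, 9 with higher and 4 with lower estimates (median log2 fold change 0.26). By edgeR 0 of the 13 passed, 4 higher and 1 lower had an unadjusted p under 0.05, and DESeq2 called 2 higher. These were *Cd5l*, a secreted macrophage survival protein, and *Smpdl3a*, a phosphodiesterase named here after its values were seen (log2 fold change 0.83, and 0.49 without vehicle animals 1 and 3). *Cd5l* went from 655, 1075, 1075 and 1481 CPM in vehicle animals 1 to 4 to 2548, 2613, 3944 and 1885 CPM in HPβCD animals 1 to 4, without overlap, a log2 fold change of 1.36 (standard error 0.31, adjusted p = 0.0583 by edgeR). Genes of fatty acid synthesis, another side of the LXR response, had log2 fold changes of 0.20 for *Srebf1*, -0.22 for *Fasn*, -0.13 for *Scd1* and -0.54 for *Scd2* (edgeR adjusted p of 0.608, 0.649, 0.723 and 0.123). Without vehicle animals 1 and 3 *Fasn* turned to 0.33, while *Scd1* was at -0.27 and *Scd2* at -0.29. In *Scd2* each HPβCD animal was below each vehicle animal. *Acaca*, another gene of this synthesis, went the other way, with each HPβCD animal above each vehicle animal. Its log2 fold change was 0.33 (edgeR adjusted p = 0.1425), and 0.35 without vehicle animals 1 and 3. *Lpl*, lipoprotein lipase, had -0.21 (edgeR adjusted p = 0.743), and -0.64 without vehicle animals 1 and 3. *Srebf1*, *Fasn*, *Scd1* and *Acaca* were also named after their values were seen.

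Of 11 receptor partners and cofactors, 5 had higher and 6 lower estimates (median -0.23, and -0.062 without vehicle animals 1 and 3), and 0 passed edgeR's test, with 1 higher and 2 lower at an unadjusted p under 0.05. *Rxra*, the retinoid X receptor that pairs with LXRs in macrophages, was called higher by DESeq2. It was at 75.8, 117, 84.3 and 143 CPM in vehicle and at 205, 269, 189 and 181 CPM in HPβCD infarcts, a log2 fold change of 1.01 (standard error 0.23, adjusted p = 0.0599 by edgeR). *Ncor1*, a corepressor, and *Ep300*, a coactivator, had log2 fold changes of -0.27 and 0.062 (edgeR adjusted p of 0.344 and 0.836), and of -0.064 and -0.10 without vehicle animals 1 and 3.

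Of 6 enzymes that make or remove LXR ligands, 2 had higher and 4 lower estimates, and 0 passed edgeR's test, with 2 lower at an unadjusted p under 0.05. DESeq2 called 2 lower, among them *Cyp46a1*, the neuronal enzyme of 24-hydroxycholesterol. In vehicle animals 1 and 3 *Cyp46a1* reached 22.4 and 74.8 CPM, against at most 2.36 CPM in the other 6 libraries. Without those 2 animals the log2 fold change of *Cyp46a1* was -0.21. *Ch25h*, which makes 25-hydroxycholesterol in macrophages, had -0.49 (standard error 0.41, adjusted p = 0.482 by edgeR), and -0.80 without vehicle animals 1 and 3.

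Among 11 other sterol transporters and acceptors tested, 6 had higher and 5 lower estimates (median 0.15), and edgeR called 1 higher and 0 lower. The called gene, *Apod*, encodes an apolipoprotein of HDL particles made by fibroblasts and glia. It rose from 1196, 1776, 1230 and 2512 CPM in vehicle animals to 5254, 4684, 5598 and 3483 CPM in HPβCD animals, a log2 fold change of 1.502 (standard error 0.29, adjusted p = 0.0483 by edgeR). The call was kept in 2 of the 8 fits with 1 animal left out and lost without vehicle animals 1 and 3 together (log2 fold change 1.16). DESeq2 called 2 more higher, *Abca7* and *Scarb1*, and called *Lcat* lower, all 3 named after their values were seen.

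Genes that deliver cholesterol from lysosomes and ester stores, upstream of efflux, were higher in 7 of 7 (median 0.69, and 0.50 without vehicle animals 1 and 3). *Npc1*, which exports cholesterol from lysosomes, was the 1 gene called by edgeR, at 0.99 (standard error 0.18, adjusted p = 0.0483 by edgeR). Its call was kept in 3 of the 8 fits with 1 animal left out and lost without vehicle animals 1 and 3 together (0.82). The study picked out *Npc1*, *Npc2* and *Lipa* on these libraries, and the list was chosen with earlier results of these data known. Its genes are therefore not independent evidence. DESeq2 called 4 of the 7 higher, against 5.92% of all genes it tested. In 5 of 7 all HPβCD animals lay above all vehicle animals, against 8.77% of all genes.

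SREBP2 and its target genes showed the opposite sign. Of 11 tested, 11 had lower estimates (median -0.76), and in 4 of them the groups did not overlap, against 8.03% of all genes in that direction. By edgeR 0 passed, with 8 lower at an unadjusted p under 0.05, against 16% of all genes. DESeq2 called 4 lower, against 11.1% of all genes it tested. Among them were *Hmgcs1*, an early enzyme of cholesterol synthesis, and, named after their values were seen, *Sqle* and *Stard4*. *Hmgcs1* was at 101.5, 86.6, 195.5 and 87.3 CPM in vehicle and at 67.9, 63.9, 48.3 and 62.1 CPM in HPβCD infarcts, a log2 fold change of -0.96 (standard error 0.28, adjusted p = 0.0819 by edgeR), and -0.51 without vehicle animals 1 and 3. The summed level of the list overlapped between the groups. Without vehicle animals 1 and 3 the list median was -0.30, and *Lss* and *Insig1* turned, to 0.25 and 0.12. These genes were also named after their values were seen.

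**Figure D5:**
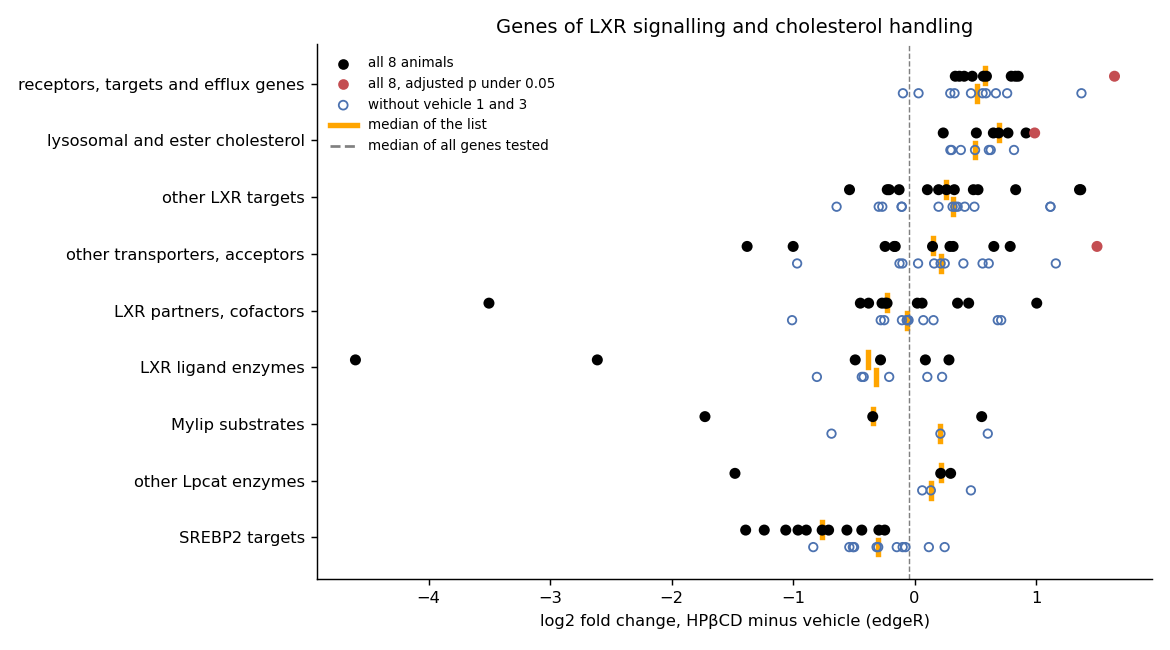
Log2 fold change (HPβCD minus vehicle, edgeR) of every tested gene by list, the top row holding the 10 genes of the report. Filled points use all 8 animals (red: adjusted p under 0.05), open points leave out vehicle animals 1 and 3, orange marks are list medians and the dashed line is the median of all genes (-0.045). The filled points of the top 2 rows, the genes of the report and the lysosomal and ester cholesterol list, lie to the right of the line. Those of the SREBP2 row, at a median of -0.76, lie to its left. The open points of that row have a median nearer to the line (-0.30), and those of *Lss* and *Insig1* lie to its right.

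By the root mean square difference between log2 profiles over the 8 libraries, each centred on its mean, the genes most like *Abca1* among 9566 genes with at least 10 CPM were *Manba*, *Lama4* and *Tpp1* (0.11 each), of which *Manba* and *Tpp1* encode lysosomal enzymes. Nearest to *Apoe* were *Iqgap2*, *Chst12* and the lysosomal galactosidase gene *Glb1* (0.13 to 0.15). Nearest to *Nr1h3* were *Rab3d*, *Dag1* and *Arap1* (0.046 to 0.063). This likeness includes the difference between the groups.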

How the data were processed

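Counts per gene from 8 infarcts (4 vehicle, 4 HPβCD) were analyzed. Per the labels and the study's methods, the authors made strand-specific mRNA libraries, trimmed reads with Trimmomatic 0.32, aligned them to GRCm38 with STAR 2.5.2b and used htseq-count for gene counts; the strand option and annotation release were not given in the sources used here. The deposited values are raw counts. The 5 lines for reads in no gene (26.6% to 36.6% of a library) were left out. Symbols were matched for 45143 of 46078 identifiers; coordinates and exon lengths are from GENCODE M21 (GRCm38).

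Genes were tested with edgeR 4.0.16 in R 4.3.3 (robust quasi-likelihood F test, TMM factors, filterByExpr, no covariate, Benjamini-Hochberg adjustment over 14736 genes, threshold 0.05), with SEs from the fold change and F. DESeq2 1.42.0 and limma 3.58.1 were alternatives. The fits were tested on simulated data. Log2 CPM used a prior count of 2 and ratios a prior count of 0.5. Exact two-sided permutation tests ran over 70 assignments. Named genes are the 10 members, the called genes and 3 most abundant genes of each pathway list, *Mylip* substrates, the most abundant marker per cell type and the 3 nearest profiles, and others where stated. The members and lists were chosen with earlier results of these data known. The labels give no batch. All library pairs differed by more than sampling noise (chi-square per degree of freedom at least 18.9). P-values set a difference between groups against the spread between these animals, which edgeR, DESeq2 and limma estimate in part from other genes. Some genes of the lists are counted but not reported here by name.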

Additional observations from a re-analysis of the deposited data

Results flagged for a closer look

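In each group of 4 animals, the lowest and highest values were compared with the rest by Dixon's criterion. Of 48 groups searched, 2 held an animal standing apart, and chance gives about 2.4. *Lpcat3* in HPβCD animal 4 was at 5.69 log2 CPM, against 6.24 to 6.27 in the other 3 HPβCD animals. *Hdlbp* relative to the macrophage genes was at 1.54 in vehicle animal 3, against 0.88 to 0.94 in the other 3 vehicle animals, while the HPβCD animals ranged from 0.63 to 1.53.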

How the results depend on the processing

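The 10 fold changes were recomputed under 15 alternatives each. Of these 150 values, 129 kept their direction and side of the threshold, 10 passed it newly, 8 lost it (all for *Pltp*) and 3 changed sign. The sign changes were *Apoc1* with limma-voom (-0.080) and, with single animals left out, at the low end of its range (-0.062 to 0.63), and *Mylip* without vehicle animals 1 and 3 (-0.096). Calls among the 10 genes, all genes and the pathway lists (main: 1, 287 and 2) were 5, 2899 and 20 by DESeq2, 5, 3253 and 20 by limma-voom, 0, 11 and 0 with library totals only, 0 to 2, 0 to 629 and 0 to 4 with 1 animal left out (0 over all genes without vehicle animal 1 or 4 or HPβCD animal 2 or 3, with 2922 to 4216 at an unadjusted p under 0.05), and 0, 202 and 0 without vehicle animals 1 and 3. With the replicate block they were 0, 9 and 0, so *Pltp* lost its call; same-numbered animals did not all deviate together (correlations -0.26, 0.24, 0.33 and 0.098), so the numbers are not read as pairs. The cause of these changes was not tested. The *Nr1h3* to *Nr1h2* ratio ranged from -0.11 to 0.28 with 1 animal left out and was -0.26 without vehicle animals 1 and 3. Macrophage-relative values that changed sign were near 0: *Apoc1* (0.24 with *Csf1r*; -0.21 to 0.074 with 1 animal left out), *Nr1h2* (0.27 with *Csf1r*; 0.32 without vehicle animals 1 and 3; -0.17 to 0.18 with 1 animal left out) and *Mylip* (-0.35 without vehicle animals 1 and 3; -0.19 to 0.29 with 1 animal left out). With at most 2 letters changed, the DR4 element was found in 0 of the 8 genes with a promoter window. *Apoc1*, at 24 to 112 reads, is the gene most limited by depth.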
